A study of Saccharomyces cerevisiae with 60 samples.

Results

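Budding yeast that lacked MSN2 and MSN4 were compared with cells that carried both genes, each after 10 min at 42 °C. The comparison rested on 6 of 60 libraries, the 3 of each group whose labels give that strain, temperature and time and no Hsf1 depletion. It was made directly between the heated groups, so that their levels at 25 °C did not enter the difference. All 60 libraries were fitted together, however, and the spread behind each p-value was estimated from all of them. Both groups were W303 cells in rich glucose medium whose Hsf1 protein carried the anchor-away tag, and both were given DMSO, the solvent of rapamycin, for 45 min at 25 °C before the heat. The tagged strain with both genes is called wild type here, and the strain with the msn2 msn4 deletion is called MSN-deleted. No rapamycin was given to either, so Hsf1 was not removed from the nucleus by the drug in these 6 libraries. The whole series also holds Hsf1-depleted cells (given rapamycin), the deletion and depletion combined, and samples at 25 °C, at 37 °C for 10 or 30 min and at 42 °C for 30 min.

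Msn2 and Msn4 are related zinc finger activators that enter the nucleus when protein kinase A activity falls, as it does in many stresses. They bind the stress response element, whose core is AGGGG on either strand, in the promoters of genes for storage carbohydrates, antioxidants and small stress proteins. Hsf1, the essential heat shock factor, binds inverted GAA repeats and drives the genes of cytosolic chaperones, and some promoters hold both kinds of site.

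The poly(A) RNA counts of the 6 libraries summed to between 3920645 and 7551494, so a gene with 0 counts lay below 0.397 to 0.765 CPM (the count of a gene scaled to a common library size), a limit that covers counting error only. CPM values below are scaled by TMM (trimmed mean of M values) and give the level of a gene in a library. The limit above uses library totals before that scaling, whose factors ran from 0.707 to 1.17 in the 6 libraries. A gene is called lower or higher in MSN-deleted cells where the edgeR quasi-likelihood test gave an adjusted p under 0.05 and the log2 fold change was at least 1 in size, and these 2 words are used only of called genes. The libraries were not equally alike. MSN-deleted replicate 1 stood apart from its group, with a chi-square over genes of 217 per degree of freedom to replicate 2 and 171 to replicate 3, against 29.6 between those 2. The replicates of each group came from 3 library sets, as the names of the deposited tables number them, and the sets of the 2 strains are separate, so set and deletion cannot be told apart. In bulk RNA, fewer cells with a transcript and less of it in each cell cannot be told apart either. Both strains carried transcripts of alpha cells, whose 4 marker genes summed to 722 to 1029 CPM in MSN-deleted and 557 to 975 CPM in wild-type libraries. None of the 4 was called, while of 7 a-cell markers 1 was higher (MFA2, an a-factor gene, 1.53 ± 0.48, adjusted p = 0.015), a call that ended without MSN-deleted replicate 1 (1.16) or wild-type replicate 1 (1.14) or 2 (1.39).

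MSN2 (YMR037C, chromosome XIII, 344403 to 346517, build R64) had 172, 163 and 214 CPM in the 3 wild-type libraries, and MSN4 (YKL062W, chromosome XI, 323228 to 325120) had 205, 259 and 437 CPM. Neither gene had a count in any of the 3 MSN-deleted libraries. HSF1 itself had 147, 85.5 and 119 CPM in MSN-deleted and 146, 172 and 192 CPM in wild-type libraries. The HSF1 groups overlapped by 1 library. The difference missed the thresholds of both size and adjusted p (log2 fold change -0.54 ± 0.21 with its standard error here and below, edgeR adjusted p = 0.051). HSF1 overlaps an opposite-strand feature at each end, and whether reads were counted by strand is not given in the sources used here.

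At 42 °C for 10 min, most general stress genes and most genes of the storage carbohydrates trehalose and glycogen were lower in MSN-deleted cells, with a log2 fold change of -9.11 for HXK1, and no core Hsf1 chaperone gene was called. Of 6070 genes tested, 535 (8.81%) were lower and 424 (6.99%) were higher in MSN-deleted cells. These counts are from the fit of all 60 libraries, and a fit of only the 6 gave 465 lower and 173 higher of 5668 genes. The lower genes had the wider range, with a median log2 fold change of -1.74 and 59 genes down by at least 4, against a median of 1.41 and 68 genes up by at least 2 for the higher ones. The 535 and the 59 include MSN2 and MSN4, whose absence was set by the strain. The median of all genes was 0.11. Among the 959 called genes (15.8%) the libraries of the groups did not overlap in 813, and they did not overlap in 31.9% of all genes. The lower calls changed less than the higher ones when a library was left out. There were 489 to 677 lower genes without any of 5 of the libraries and 840 without MSN-deleted replicate 1, and 132 to 561 higher genes, with the fewest without MSN-deleted replicate 2. With library totals in place of TMM, 845 genes were higher and 366 lower, which moved the higher share of calls from 44.2% to 69.8% and the median of all genes to 0.45.

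Of 50 general stress genes, 44 were lower, none was higher and 6 were not called, and their median log2 fold change was -3.98. The list was drawn from textbook knowledge with earlier results of these data known. CTT1 (YGR088W, chromosome VII, 654634 to 656322), the cytosolic catalase that removes hydrogen peroxide, had 52.6, 22.1 and 24.2 CPM in MSN-deleted and 2320.5, 6114 and 8422 CPM in wild-type libraries. Every MSN-deleted library lay far below every wild-type library, and wild-type replicate 1 was the lowest of its group. The log2 fold change of CTT1 was -7.42 ± 0.54 (edgeR adjusted p = 2.86e-15). DDR2, a small stress protein of unknown biochemical role, had 1.52, 0.696 and 0.356 CPM against 48.4, 233 and 358 CPM, with a log2 fold change of -8.04 ± 0.74 (adjusted p = 3.40e-12). The MSN-deleted values of DDR2 are near the level of single counts. HSP12, a membrane-binding small heat shock protein gene, had 5.88, 14.3 and 17 CPM against 241, 572 and 710 CPM (-5.34 ± 0.96, adjusted p = 2.64e-05). HSP26, whose product is a small chaperone that keeps unfolded proteins from clumping, had 315, 262 and 273 CPM against 5592, 7350 and 11845 CPM (-4.87 ± 0.61, adjusted p = 1.31e-08). The groups of HSP12 and HSP26 did not overlap either, although HSP26 stood far above its 25 °C level of 4.88 CPM (mean, n = 3) in the same MSN-deleted strain. In wild-type libraries, replicate 1 had the lowest value of its group for 419 of the 535 lower genes, and in MSN-deleted libraries replicate 1 had the highest for 348, and the part of these libraries in the sizes given was not tested. Of 13 genes for hydrophilins and other small stress proteins, 8 were lower, none was higher and 5 were not called (median -2.01). The count of 44 general stress genes was 44 without each of the 6 libraries in turn.

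**Figure D1:**
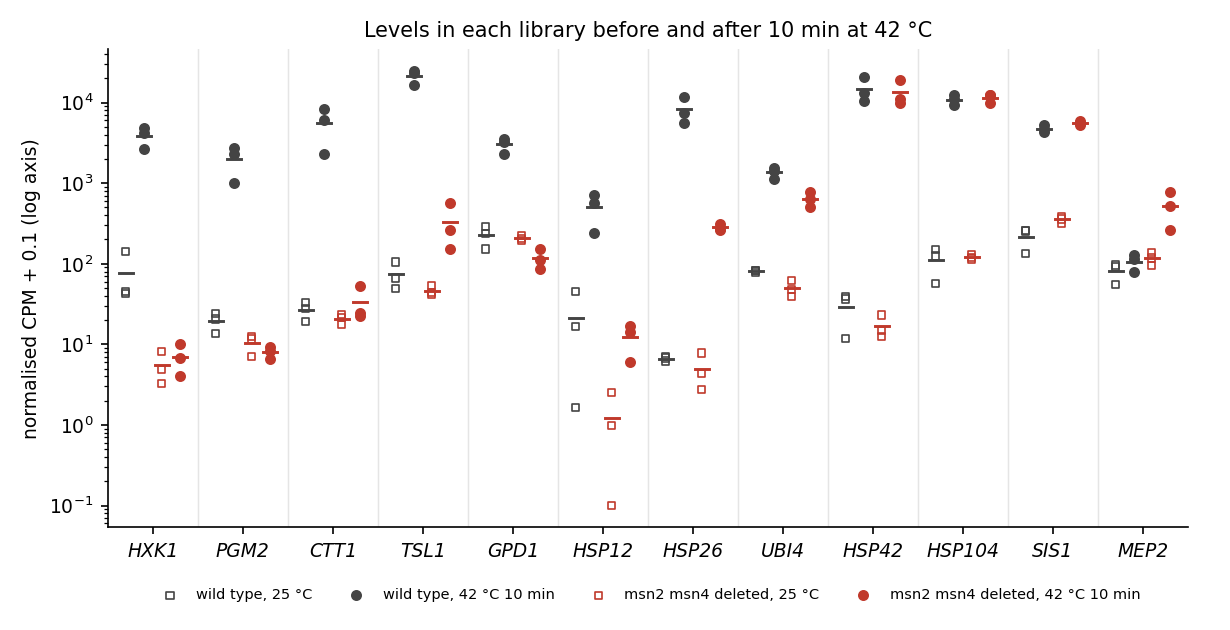
Normalised CPM plus 0.1 on a log axis for 12 genes in each library of wild type (grey) and msn2 msn4 deleted cells (red), at 25 °C (open squares) and after 10 min at 42 °C (filled circles), with short lines for group means (n = 3). The filled red points of HXK1, PGM2 and CTT1 lie near the 25 °C points, those of HSP42, HSP104 and SIS1 lie among or beside the filled grey ones, and those of MEP2 lie above them.

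The genes of trehalose, a disaccharide that protects proteins and membranes in heat, were lower as a whole list. All 7 were lower, with a median of -3.97. TSL1, a regulatory subunit of the trehalose synthase complex, had 571, 151 and 259 CPM in MSN-deleted and 16682, 24653 and 23365 CPM in wild-type libraries (-6.04 ± 0.53, adjusted p = 7.98e-13). The groups of TSL1 lay far apart, with MSN-deleted replicate 1 the highest of its group. TPS2, the phosphatase of the complex, had a mean of 68.6 CPM against 3553 CPM, TPS1, the synthase, 85.9 CPM against 2263 CPM, and TPS3, the other regulatory subunit, 88.8 CPM against 938 CPM, and the log2 fold changes were -5.70 ± 0.38, -4.72 ± 0.31 and -3.40 ± 0.28. The genes that break trehalose down were lower as well, with -3.97 ± 0.29 for the neutral trehalase NTH1 and -2.34 ± 0.23 for the acid trehalase ATH1.

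Glycogen genes, which build and use the other storage carbohydrate, followed with 10 of 14 lower, none higher and a median of -2.95. GPH1, the phosphorylase that releases glucose from glycogen, had 4.94, 6.82 and 6.29 CPM in MSN-deleted and 405, 1652 and 919.8 CPM in wild-type libraries (-7.35 ± 0.67, adjusted p = 2.56e-12), and it overlaps other features on both strands. All MSN-deleted values of GPH1 were within a narrow band below the wild-type ones. GAC1, which brings a protein phosphatase to glycogen synthase, had -6.05 ± 0.71, the synthases GSY1 and GSY2 had -4.55 ± 0.33 and -4.05 ± 0.43, the branching enzyme GLC3 had -4.44 ± 0.46 and the primer GLG1 had -4.13 ± 0.36 (adjusted p at most 3.30e-09). Of 13 genes that phosphorylate glucose and route sugar phosphates, 6 were lower and none higher. HXK1, a hexokinase, had 3.99, 6.68 and 9.97 CPM against 2669, 4792 and 4158 CPM, with a log2 fold change of -9.11 ± 0.59 (adjusted p = 1.30e-16). It was the farthest of the 6 from wild type and overlaps a same-strand feature. PGM2, the phosphoglucomutase that links glycolysis to storage carbohydrates, had 9.11, 6.54 and 8.07 CPM against 997, 2754 and 2272 CPM (-7.99 ± 0.47, adjusted p = 3.44e-18). The MSN-deleted values of PGM2 were close together, and wild-type replicate 1 was well below the other wild-type libraries but still far above them. The glucokinase GLK1 (-5.34 ± 0.53), its relative EMI2 (-4.60 ± 0.35) and UGP1, which makes UDP-glucose (-4.17 ± 0.31), were lower too, and GLK1 and UGP1 overlap other features.

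Yeast keeps pairs of related enzymes. In the lists used here 1 of each pair was set down as the stress form and the other as its growth partner. These lists were drawn up with earlier results of these data known. Of 20 such stress forms 17 were lower and none higher, with a median of -3.26, while of their 20 partners 2 were lower and none higher, with a median of -0.05. The partners that were lower were GSY1, given above, and CTA1, the peroxisomal catalase (-1.39 ± 0.34, adjusted p = 0.0021). Both of these partners rose from 25 °C to 42 °C in wild type and in MSN-deleted cells. The hexokinase HXK2 had -0.16 ± 0.25 and the phosphoglucomutase PGM1 -0.32 ± 0.18, neither of them called, beside the values of HXK1 and PGM2 above. The sign of both turned under library totals, where HXK2 had 0.17 and PGM1 0.033. Of 13 glycolysis genes 4 were lower and none higher, with PYK2, a minor pyruvate kinase, at -3.69 ± 0.34, TDH1, a minor glyceraldehyde phosphate dehydrogenase, at -2.72 ± 0.44 and ENO1, an enolase, at -1.78 ± 0.32. TDH1 and ENO1 have near-identical relatives, so the split of their reads is uncertain. Of 14 pentose phosphate genes 4 were lower, among them the transketolase TKL2 (-4.27 ± 0.74) and the phosphogluconate dehydrogenase GND2 (-2.83 ± 0.43). Of 12 hexose transport genes tested 6 were lower and none higher, among them HXT5, a transporter made when growth slows (-3.47 ± 0.48), and HXT4 (-2.75 ± 0.41). Of 18 glycerol and osmotic stress genes 8 were lower and none higher. GPD1, the first enzyme of glycerol synthesis, had 151, 87.1 and 111 CPM against 2306, 3225 and 3531 CPM (-4.70 ± 0.33, adjusted p = 1.78e-15), and it overlaps an opposite-strand feature. GCY1 (-3.06 ± 0.38), of glycerol breakdown, and GPP2 (-2.65 ± 0.33), the phosphatase that completes glycerol synthesis, were lower as well.

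Most antioxidant genes were not called. Among them, 5 of 6 catalase and superoxide dismutase genes were lower, with CTT1 above and the mitochondrial dismutase SOD2, which had 218, 96.5 and 102 CPM against 411, 689 and 1127 CPM (-2.42 ± 0.38, adjusted p = 2.78e-06). Of 30 thioredoxin and glutathione genes 6 were lower (20%, against 8.81% of all genes), 2 higher (6.67%, near the 6.99% of all genes) and 22 not called. The lower ones included the peroxiredoxins AHP1 (-2.96 ± 0.34) and PRX1 (-2.81 ± 0.25), the glutathione peroxidase GPX1 (-2.75 ± 0.53) and the glutaredoxin GRX2 (-2.23 ± 0.32, overlapping an opposite-strand gene). The thioredoxin gene TRX2, one of the 6 general stress genes without a call, had 46.1, 48 and 58.3 CPM against 89.6, 83.3 and 83.1 CPM (-0.75 ± 0.30, adjusted p = 0.062). The 2 groups of TRX2 do not overlap, but its fold change is small. ALD3, a cytosolic aldehyde dehydrogenase, was lower at -4.72 ± 0.66. UBI4, the polyubiquitin gene that supplies ubiquitin in stress, had 786, 507 and 631 CPM against 1119, 1407 and 1542 CPM (-1.08 ± 0.19, adjusted p = 2.64e-05). It was less far from wild type than the other named lower genes of the general stress list, and it missed the size threshold under library totals (-0.74).

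Genes of the cell surface moved in both directions, with 11 of 33 stress-linked wall and membrane genes lower and 6 higher. HSP30, a plasma membrane protein that restrains the proton pump, had 173, 199 and 402 CPM against 5652, 8220.2 and 5639.6 CPM (-4.65 ± 0.67, adjusted p = 4.28e-07), and the secreted glycoprotein YGP1 had -4.24 ± 0.69. Of 25 sphingolipid genes 4 were lower (16%, against 8.81% of all genes) and 1 higher (4%, against 6.99%). Among the 4 were YPC1, a ceramidase (-3.83 ± 0.32), and RSB1, a transporter of long-chain bases (-3.58 ± 0.39). Of 54 respiratory chain and citric acid cycle genes 12 were lower and 1 higher, and the 12 rose to 22 without MSN-deleted replicate 1 and to 22 without wild-type replicate 1. The lower ones included CYC7, a form of cytochrome c (-4.30 ± 0.85), and MDH1, the mitochondrial malate dehydrogenase (-2.21 ± 0.28). CYC7 had 0.569 to 1.81 CPM in MSN-deleted libraries, near the level of single counts.

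Regulators were among the lower genes as well. Of 41 genes of stress transcription factors and kinases, 13 were lower and 1 was higher. USV1, a zinc finger factor of the response to poor carbon sources, had 29.8, 11.3 and 9.50 CPM in MSN-deleted and 521, 749 and 1524 CPM in wild-type libraries (-5.80 ± 0.54, adjusted p = 3.99e-12). The leucine zipper factor CIN5, a relative of Yap1, had 30.4, 35.2 and 31.2 CPM against 325, 869 and 1423 CPM (-4.75 ± 0.40, adjusted p = 1.95e-13). The MSN-deleted values of CIN5 were close together, and the wild-type ones spread more widely but did not reach them. YAK1, a kinase that restrains growth and acts against protein kinase A, had -3.58 ± 0.42, the repressor XBP1 had -3.23 ± 0.68 and GIS1, a stationary phase factor, had -3.14 ± 0.29. YAK1 overlaps a same-strand feature. The higher regulator was RCN1, an inhibitor of calcineurin, with 287, 102 and 104 CPM against 37.2, 45.8 and 66.9 CPM (1.72 ± 0.42, adjusted p = 0.0019), and without MSN-deleted replicate 1 it was not called (0.96).

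The Ras and protein kinase A pathway, which holds Msn2 and Msn4 out of the nucleus during growth, was itself represented. Of its 21 genes 6 were lower and 1 was higher. TPK2, a catalytic subunit of the kinase, had 18.8, 12.9 and 20.3 CPM in MSN-deleted and 82.9, 124 and 139.9 CPM in wild-type libraries (-2.74 ± 0.22, edgeR adjusted p = 4.33e-14). The groups of TPK2 did not overlap. The lower genes also included TFS1, an inhibitor of carboxypeptidase Y that also binds the Ras regulator Ira2 (-3.95 ± 0.50), the GTPase RAS2 (-1.90 ± 0.32), the regulatory subunit BCY1 (-1.76 ± 0.33) and the adenylate cyclase CYR1 (-1.41 ± 0.18). The list thus held both activating and inhibiting members among its lower genes. The higher member was RGS2, which acts on the glucose-sensing G protein (1.11 ± 0.39, adjusted p = 0.031), and that call ended when any 1 of the libraries other than wild-type replicate 1 was left out (0.74 to 1.20).

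Core Hsf1 targets gave no such difference. Of 19 core Hsf1 chaperone genes none was lower and none higher, with a median of 0.23. Beside these 0 calls by edgeR, an unadjusted p under 0.05 was found for 4 of the 19, against 2232 of all 6070 genes. DESeq2 also made 0 calls, while library totals gave 3 higher and leaving out MSN-deleted replicate 1 gave 2 higher. HSP104, the disaggregase that pulls proteins out of aggregates, had 9951, 12342 and 12316 CPM in MSN-deleted and 12312, 11019 and 9233 CPM in wild-type libraries (0.09 ± 0.26, adjusted p = 0.84). HSP42, a small heat shock protein that gathers misfolded proteins, had 19195, 11030 and 9787 CPM against 10310, 13185 and 20763 CPM (-0.15 ± 0.41, adjusted p = 0.83). The groups of both genes overlapped widely. The Hsp90 gene HSP82 had 0.14 ± 0.30, the Hsp40 partner gene SIS1 had 0.25 ± 0.23, the protein-sorting gene BTN2 had 0.74 ± 0.38 and SSA4, a heat-induced Hsp70 gene, had 0.34 ± 0.30, none of them called. HSP82 and SSA4 have near-identical relatives, so the split of their reads is uncertain. HSP42 and HSP104 also stand in the general stress list, where they are, with TRX2, GRE1 (-0.50 ± 0.38), NQM1 (-0.51 ± 0.52) and HOR7 (0.049), the members without a call. All 19 core targets rose from 25 °C to 42 °C in wild type and all 19 rose in MSN-deleted cells, where 23.1% and 19.5% of all genes rose. Under library totals 1017 genes rose and 1745 fell in wild type, in place of 1405 and 1104. Of the 50 general stress genes, 50 rose in wild type and 22 in MSN-deleted cells, with median log2 rises of 4.44 and 0.92. These 2 heat comparisons were added after the data were seen, and they share libraries with the comparison of the strains.

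**Figure D2:**
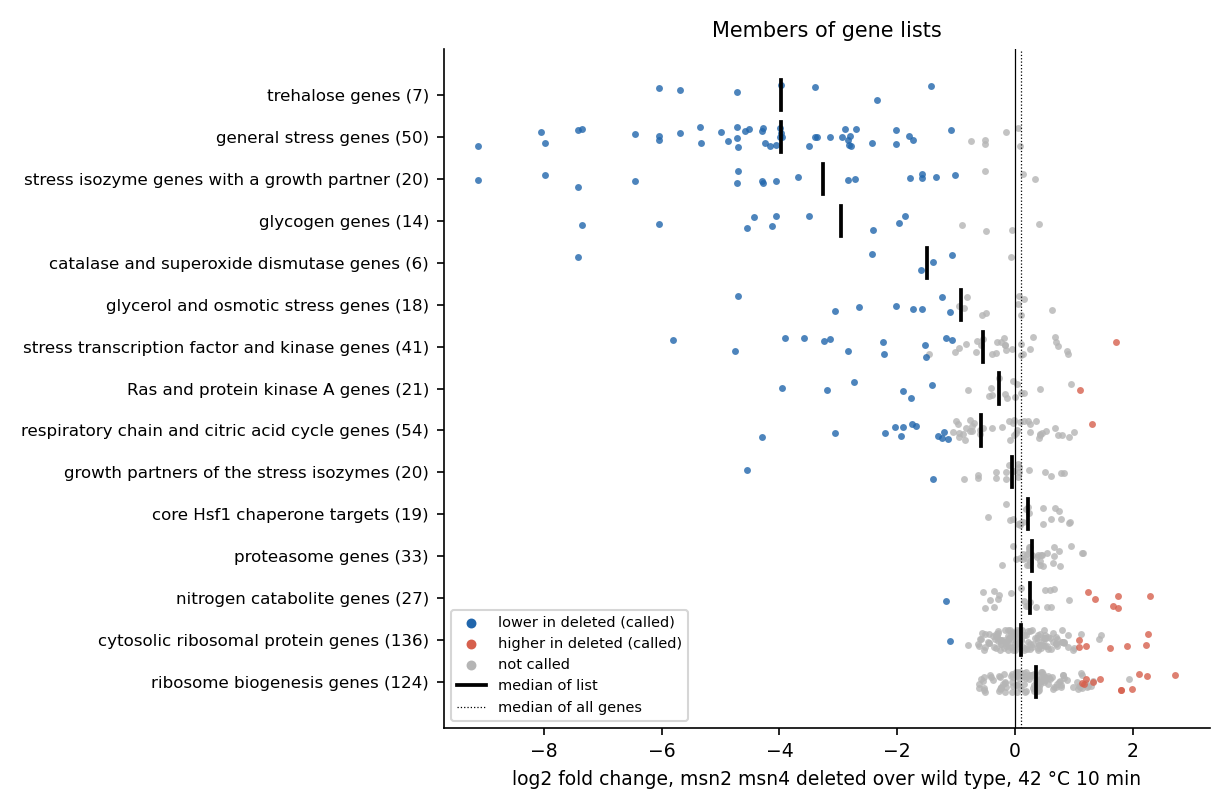
Log2 fold changes of MSN-deleted over wild type after 10 min at 42 °C for each member (point) of 15 gene lists, with the number tested in brackets, blue for lower, red for higher and grey for not called. Thick bars are list medians, from -3.98 for the general stress genes to 0.36 for ribosome biogenesis genes, and the dotted line is the median of all genes at 0.11.

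The promoters of the genes that fell, and of those that did not, can be read beside the values. The stretches below are of 120 bases each, from the R64 reference genome of RefSeq, written 5′ to 3′ on the strand of the gene, and the nearest of them ends 151 bases before the start codon. Capitals mark AGGGG or its complement CCCCT and paired heat shock units, TTCNNGAA or GAANNTTC. The first set shows lower genes, the second shows HSP42 and HSP104, which hold both kinds of letters and were not called, and the last shows SIS1, a core Hsf1 target with no AGGGG in its 500 bases.
PGM2 (chrXIII:477847-477966, minus strand): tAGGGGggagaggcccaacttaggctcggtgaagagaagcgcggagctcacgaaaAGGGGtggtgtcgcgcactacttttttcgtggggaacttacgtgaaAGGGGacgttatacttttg
CTT1 (chrVII:654206-654325, plus strand): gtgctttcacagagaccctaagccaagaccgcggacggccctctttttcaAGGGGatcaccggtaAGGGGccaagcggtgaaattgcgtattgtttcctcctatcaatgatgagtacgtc
TSL1 (chrXIII:70191-70310, plus strand): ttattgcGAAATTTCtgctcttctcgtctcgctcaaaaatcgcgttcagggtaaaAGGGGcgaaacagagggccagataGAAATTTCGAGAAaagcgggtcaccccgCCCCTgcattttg
HSP26 (chrII:381619-381738, plus strand): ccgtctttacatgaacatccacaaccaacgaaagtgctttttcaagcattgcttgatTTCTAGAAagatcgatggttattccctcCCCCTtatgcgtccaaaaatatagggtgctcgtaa
HSP42 (chrIV:806351-806470, plus strand): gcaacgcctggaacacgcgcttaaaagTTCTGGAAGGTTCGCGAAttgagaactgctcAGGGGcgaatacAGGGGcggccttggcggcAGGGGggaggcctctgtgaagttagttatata
HSP104 (chrXII:88305-88424, plus strand): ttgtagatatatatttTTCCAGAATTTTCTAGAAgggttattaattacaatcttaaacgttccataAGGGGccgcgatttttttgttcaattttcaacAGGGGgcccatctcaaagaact
SIS1 (chrXIV:619838-619957, minus strand): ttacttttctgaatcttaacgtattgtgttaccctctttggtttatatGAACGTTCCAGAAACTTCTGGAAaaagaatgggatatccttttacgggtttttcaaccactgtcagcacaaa
Over the 500 bases before the start codon of 5624 protein-coding genes tested, 34.7% held at least 1 AGGGG on either strand. The share was 77.0% of the 509 lower genes, 16.7% of the 384 higher genes and 31.6% of the 4731 genes not called. At least 2 were held by 36.1% of lower, 1.56% of higher and 8.41% of all genes. Paired heat shock units did not divide the groups in this way, with 35.6% of lower, 37.2% of higher and 35.4% of all genes. The share called lower was 3.19% of the 3672 genes with no AGGGG, 14.1% of 1479 with 1, 34.4% of 363 with 2, 44.6% of 83 with 3, and 12 of 15 genes with 4. Of the core Hsf1 targets 94.7% held a pair of heat shock units and 42.1% held an AGGGG. The TSL1 stretch overlaps an annotated feature, YML100W-A. A match of these letters is a description of the window, and binding was not measured.

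**Figure D3:**
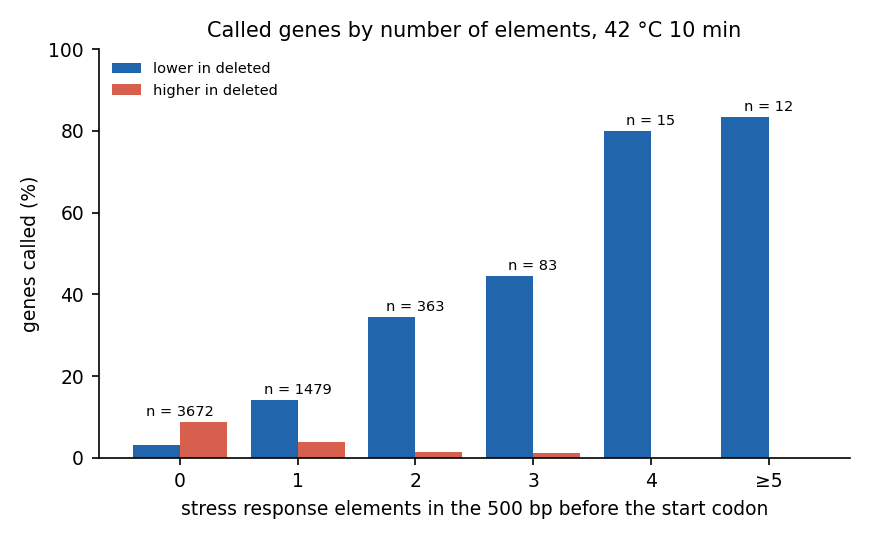
Percent of genes called lower (blue) or higher (red) in MSN-deleted cells by the number of stress response element cores in the 500 bp before the start codon, with the number of genes above each pair of bars. The blue bars stand at 3.19% with no core and at 34.4% with 2, and the last 2 pairs rest on 15 and 12 genes.

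The lower genes were compared with the heat response of cells without nuclear Hsf1, which uses none of the 6 libraries. In Hsf1-depleted cells 22.6% of genes rose and 17.2% fell from 25 °C to 42 °C. Of the 1371 genes that rose there, 404 were lower (29.5%, against 8.81% of all genes) and 76 were higher (5.54%, against 6.99%) in MSN-deleted cells. The 404 made up 75.5% of all lower genes. Of the 1046 that fell there, 5 were lower (0.478%) and 111 were higher (10.6%). The median log2 fold change of the deletion was -0.45 for the genes that rose, 0.38 for those that fell and 0.15 for the rest.

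Higher genes formed smaller groups. Of 27 nitrogen catabolite genes, which let cells use poor nitrogen sources, 6 were higher (22.2%, against 6.99% of all genes). The 1 lower gene was UGA1, a GABA transaminase gene. MEP2, the high-affinity ammonium permease, had 782, 259 and 522 CPM in MSN-deleted and 113, 127 and 78.3 CPM in wild-type libraries (2.30 ± 0.42, adjusted p = 4.27e-05). The strains did not overlap, and the lowest MSN-deleted library was replicate 2. DAL3, of allantoin breakdown, had 31.5, 31.9 and 35.9 CPM against 7.54, 9.62 and 12.3 CPM (1.76 ± 0.34), the GABA permease UGA4 had 1.75 ± 0.31 and DAL80, a repressor of nitrogen genes, had 1.67 ± 0.40 (adjusted p at most 0.0016). DAL80 overlaps an opposite-strand feature. MET14, a kinase of sulfate assimilation, had 103, 325 and 251 CPM against 51.2, 35.8 and 38.9 CPM (2.43 ± 0.45, adjusted p = 4.86e-05), and the electron carrier CYB5 had 2.28 ± 0.59 and YSY6, a small membrane protein gene, 2.65 ± 0.52. BLI1 (YKL061W), the gene next to MSN4, had 6.45, 44.8 and 27.5 CPM against 4.91, 4.65 and 1.69 CPM (2.81 ± 0.69, adjusted p = 0.0019). At 25 °C BLI1 had a mean of 2.89 CPM in MSN-deleted and 2.38 CPM in wild-type cells. The other 7 genes next to MSN2 or MSN4 were not called.

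Genes for growth were mostly not called. Of 124 ribosome biogenesis genes 11 were higher (8.87%, near the 6.99% of all genes) and none lower (median 0.36), with MRT4, which helps mature the large subunit, at 4.56, 20.5 and 17.5 CPM against 3.86, 2.99 and 2.90 CPM (2.11 ± 0.56, adjusted p = 0.0038). The 11 became 2 without MSN-deleted replicate 2, 6 without MSN-deleted replicate 3, 3 without wild-type replicate 2 and 2 without wild-type replicate 3. Of 136 cytosolic ribosomal protein genes 7 were higher (5.15%, against the same 6.99%) and 1 lower (median 0.10), and most have near-identical copies. Several library measures moved with the higher genes. MSN-deleted replicate 2 was the highest of the 6 libraries for 304 of the 424 higher genes, and the 424 became 132 without that library, 252 without MSN-deleted replicate 3, 177 without wild-type replicate 2 and 193 without wild-type replicate 3. The higher genes were short, with a median length of 820.5 bases against 1134 for all genes and 1224 for lower genes, and of low level, with a median average log2 CPM of 4.12 against 5.47 and 6.87. Small nuclear and nucleolar RNAs, which do not usually carry a poly(A) tail, summed to 688 to 1052 CPM in MSN-deleted and 316 to 438 CPM in wild-type libraries, and 24 of 64 were higher and none lower (median 1.26). Both mitochondrial ribosomal RNAs were higher too, with 186 CPM in MSN-deleted replicate 2 and 2.90 to 16.3 CPM in the others. In Hsf1-depleted cells under the same heat, the deletion gave 34 of the 64 small RNAs higher (median 1.38) and neither mitochondrial one. At 25 °C without depletion the median of the small RNAs was -0.095. With each library's trend of level on gene length removed, 451 genes were higher, and 389 of the 424 were kept. The part of the other measures in the higher calls was not tested.

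The same deletion was read in Hsf1-depleted cells after 10 min at 42 °C, where 755 genes (12.4%) were lower and 594 (9.79%) were higher than with MSN2 and MSN4 present. With library totals 391 were lower and 1616 higher, which turned the balance. This comparison shares no library with the one above, but it sets libraries of the same 3 MSN-deleted sets against the same 3 wild-type sets. Of the 535 lower genes, 461 were lower there too, which is 86.2% of one list and 61.1% of the other. For higher genes 218 were shared, 51.4% and 36.7% of the lists, and no gene was called in opposite directions. Across 5038 genes with an average log2 CPM of at least 3, Pearson's r between both sets of log2 fold changes was 0.90. Genes are not independent replicates, and both comparisons share the strains and the library sets, so in the overlap and r the deletion and the sets cannot be told apart. A test of the difference between them called 9 genes (0.148%) with the deletion value higher in the presence of Hsf1 and 0 the other way. For the count of 0 by edgeR, 308 of 6070 genes had an unadjusted p under 0.05 in either direction. That is about the share which this threshold gives where nothing differs, but the number moved with the fit. It was 541 with the library set as a term, 166 without wild-type replicate 1 and 584 of 6118 genes without wild-type replicate 3. The number therefore cannot show whether further genes differ. DESeq2 called 12 in the higher and 1 in the lower direction.

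HSP42 and HSP104 were the farthest apart between both settings. With Hsf1 the deletion changed neither to a called degree, as given above, and without nuclear Hsf1 HSP42 was lower by -6.44 ± 0.52 and HSP104 by -4.17 ± 0.30 on the log2 scale. The differences between settings were 6.29 ± 0.63 (edgeR adjusted p = 9.58e-10) and 4.25 ± 0.39 (adjusted p = 8.08e-11). The mitochondrial disaggregase HSP78 had -0.45 ± 0.29 with and -4.13 ± 0.33 without nuclear Hsf1 (difference 3.68 ± 0.42), UBI4 had -1.08 and -3.02 ± 0.21 (1.94 ± 0.27) and the protein-sorting factor CUR1 had 0.68 ± 0.29 and -1.39 ± 0.32 (2.07 ± 0.43). HRK1, a kinase gene of the proton pump, had a difference of 2.14 ± 0.41, and MSD1, YGR130C and KTI12 made up the 9. The call of CUR1 ended without MSN-deleted replicate 2 (1.82), wild-type replicate 1 (1.97) or wild-type replicate 2 (1.91) and under library totals (1.86). The 9 became 5 without MSN-deleted replicate 2, 5 without wild-type replicate 1, 5 under library totals and 16 in a fit with a library set term. HSP26, which holds both kinds of letters as well, was lower to a like degree in both settings, at -4.87 ± 0.61 and -4.94 ± 0.61, and TSL1 had -6.04 ± 0.53 and -7.24 ± 0.56.

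**Figure D4:**
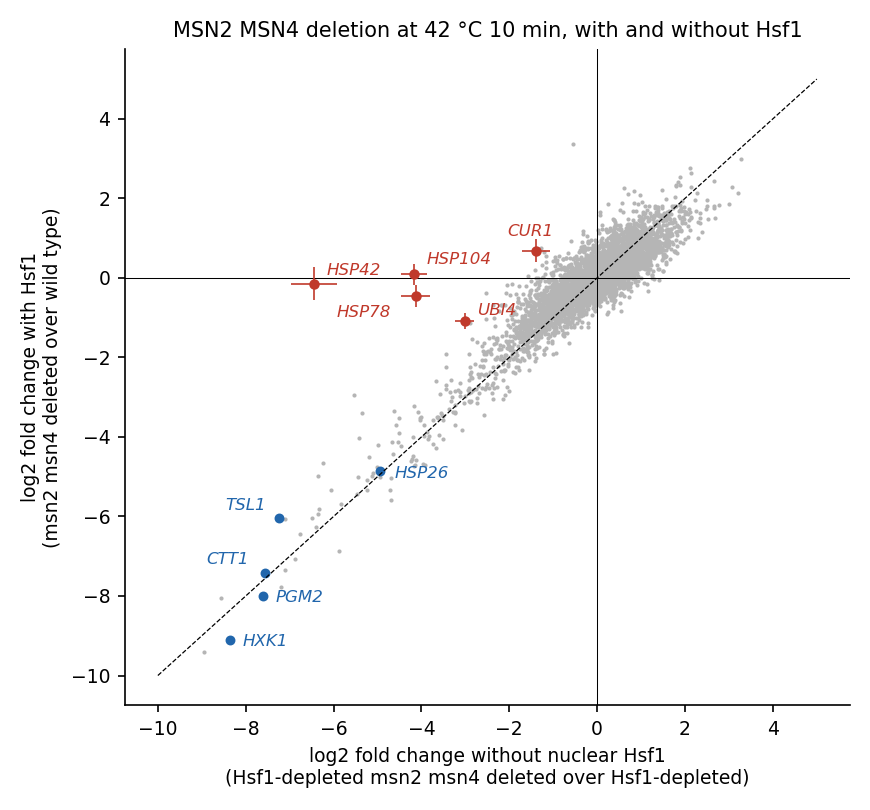
Log2 fold change of the MSN2 MSN4 deletion after 10 min at 42 °C with Hsf1 (vertical axis) against the same without nuclear Hsf1 (horizontal axis), 1 point per gene with an average log2 CPM of at least 3, leaving out MSN2 and MSN4. Error bars on the red points are standard errors, and the dashed line marks equal values. HXK1, PGM2, CTT1, TSL1 and HSP26 (blue) lie near the dashed line, while HSP42 (-0.15 against -6.44), HSP104 and HSP78 (red) lie far above it.

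The size of the deletion difference was then set beside that of the same strains in other conditions, each from its own libraries. At 25 °C 6 genes (0.0988%) were lower and 1 (0.0165%) higher. After 10 min at 37 °C 845 (13.9%) were lower and 614 (10.1%) higher, and after 30 min at 37 °C 176 (2.90%) and 62 (1.02%). After 30 min at 42 °C 829 (13.7%) were lower and 1102 (18.2%) higher. Library totals turned the balance after 10 min at 37 °C, to 419 lower and 1422 higher, and gave 611 lower and 1566 higher after 30 min at 42 °C. A test of the difference called 400 genes (6.59%) further below wild type at 42 °C for 10 min than at 25 °C and 177 (2.92%) further above. PGM2 differed by -7.09 ± 0.55, CTT1 by -7.06 ± 0.64 and TPS2 by -5.67 ± 0.47 on that measure (edgeR adjusted p at most 2.35e-11). Library totals turned this balance as well, to 249 further below and 306 further above, and the library set as a term gave 533 and 389. The 177 became 69 without MSN-deleted replicate 2, 109 without replicate 3, 372 without replicate 1, 88 without wild-type replicate 2 and 101 without wild-type replicate 3.

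Between 42 °C and 37 °C at 10 min the difference of the deletion was called for 27 genes (0.445%) in the lower and 60 (0.988%) in the higher direction. GPD1, the glycerol gene, had -4.70 ± 0.33 at 42 °C and -1.07 ± 0.29 at 37 °C, a difference of -3.62 ± 0.42 (edgeR adjusted p = 1.70e-07). CIN5 had -4.75 ± 0.40 and -2.64 ± 0.36 (difference -2.12 ± 0.49, and -1.66 and not called without wild-type replicate 3). Both genes were thus further below wild type at the higher temperature. Other genes went the opposite way. FMP45, a membrane protein of the cell cortex, had -2.71 ± 0.71 at 42 °C and -6.78 ± 0.87 at 37 °C (difference 4.08 ± 0.99), and the glycogen debranching enzyme GDB1 had -1.87 ± 0.39 and -4.69 ± 0.44 (difference 2.82 ± 0.55). The call of this difference for FMP45 ended without MSN-deleted replicate 1 (2.59) or wild-type replicate 1 (3.52). RCN1 had opposite signs, 1.72 ± 0.42 and -1.23 ± 0.42 (difference 2.95 ± 0.59). The 60 became 24 to 38 without any 1 of the libraries other than wild-type replicate 3, and the 27 became 15 without MSN-deleted replicate 2. Library totals gave 31 lower and 32 higher, and the library set as a term gave 77 and 115.

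Between 10 and 30 min at 42 °C the difference was called for 110 genes (1.81%) in the lower and 26 (0.428%) in the higher direction. The lower direction takes in genes further below wild type at 10 min and genes further above it at 30 min. Of 136 cytosolic ribosomal protein genes 15 were called in the lower direction. In that list 7 genes were higher in MSN-deleted cells at 10 min and 47 at 30 min, beside 6.99% and 18.2% of all genes. TSA2, TFS1 and AHP1 were further below wild type at 30 min. The peroxiredoxin gene TSA2 had -1.58 ± 0.46 at 10 and -4.83 ± 0.51 at 30 min (difference 3.25 ± 0.65), TFS1 had -3.95 ± 0.50 and -6.95 ± 0.58 (3.00 ± 0.65) and AHP1 had -2.96 ± 0.34 and -5.25 ± 0.38 (2.29 ± 0.45, edgeR adjusted p at most 0.0052 for all 3). HXT4 went the other way, with -2.75 ± 0.41 at 10 min and -0.20 ± 0.45 at 30 min (difference -2.55 ± 0.60, adjusted p = 0.011). The 10 min value of TSA2 was not called without wild-type replicate 3 (-1.23). Without wild-type replicate 1 the counts were 57 and 11. Under library totals the excess of lower calls was gone, with 38 lower and 42 higher, and a fit with a library set term gave 170 and 56.

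**Figure D5:**
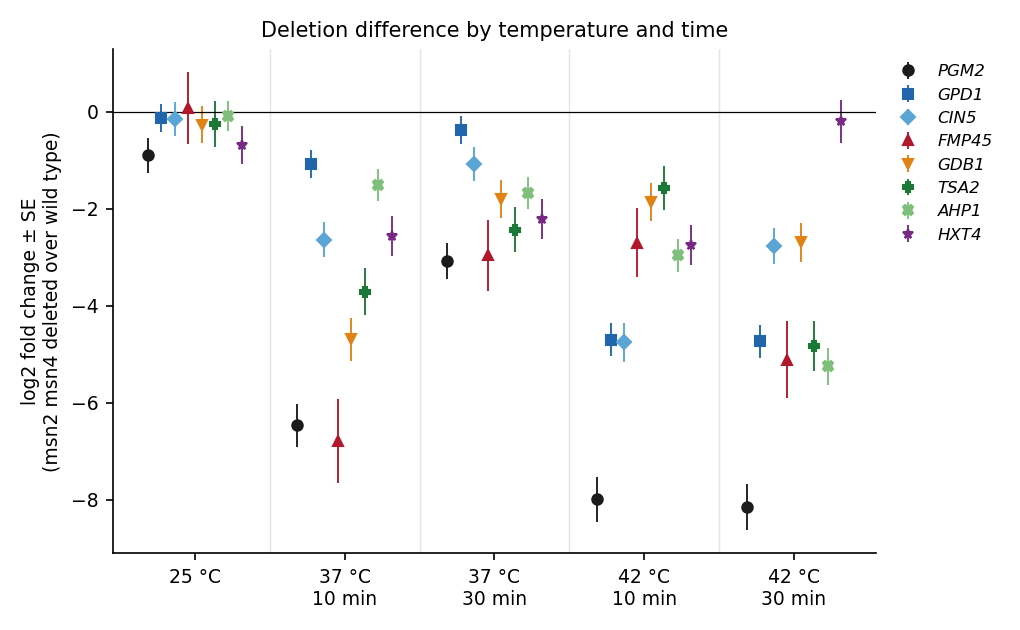
Log2 fold change of MSN-deleted over wild type with its standard error for 8 genes at 25 °C and in 4 heat conditions, each from 3 libraries per strain. All 8 lie between -0.90 and 0.07 at 25 °C, GPD1 is at -4.70 after 10 min at 42 °C and at -1.07 after 10 min at 37 °C, and HXT4 is at -0.20 after 30 min at 42 °C.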

How the data were processed

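Poly(A) RNA of 60 samples was sequenced as 50 bp single reads, per the labels. The authors deposited raw read counts per gene for 7126 features in each library. featureCounts 2.0.0 and build R64 are named in the submitters' processing notes, while no counting setting is named there. Of the features, 6048 matched the R64 reference, and 0.459% of counts lay on the others. The authors' table of heat responses was not used.

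The filterByExpr filter kept 6070 genes and removed 1056. All 60 libraries were fitted together with 1 mean per group in edgeR 4.0.16 (R 4.3.3) with TMM scaling and the two-sided quasi-likelihood F test, and Benjamini-Hochberg adjustment ran over all genes of each comparison. Standard errors follow from the fold change and its F value. The common coefficient of variation was 0.276. Calls need an adjusted p under 0.05 and a log2 fold change of at least 1 in size. Whether the replicates were separate cultures or clones is not stated in the labels, and p-values then reflect only how these samples vary, which may be technical. No pair of libraries within either compared group was a duplicate. Other pairs were not checked, and no library was left out of the main fit.

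Members and gene lists were chosen with earlier results of these data known. Named genes were chosen by a rule (a fixed set, the 15 largest falls and 15 largest rises with no overlap between groups and a mean log2 CPM of 3 or more, up to 6 called and 3 uncalled members of each list, and the 6 largest differences between conditions in each direction), and the text prints a choice of these, made with values known. UGA1, NQM1, HOR7, MFA2, RGS2, CYR1, HRK1, MSD1, YGR130C, KTI12, HXK2 and PGM1 are named beside a count or a pair. Alternatives were RLE factors, library totals, no filter, DESeq2 1.42.0, a fit of only the 6 libraries, replicate number as a block, the library set as a term, each library left out, and a removed trend with gene length, chosen after seeing the data. The fitting was tested on simulated data. Promoters were read with Python 3.11.15 from the reference genome. A result on 1 gene is not reported here.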

Additional observations from a re-analysis of the deposited data

Results flagged for a closer look

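The deletion difference after 10 min at 42 °C was tested against the same difference in other settings, and the counts and genes below passed that test (edgeR, adjusted p under 0.05 and at least 1 in size). Against 25 °C, 177 genes differed in the higher and 400 in the lower direction, with PGM2 at -7.09, CTT1 at -7.06 and TPS2 at -5.67 on the log2 scale. Against 37 °C for 10 min, 60 genes differed in the higher and 27 in the lower direction, with GPD1 at -3.62, CIN5 at -2.12, FMP45 at 4.08, RCN1 at 2.95 and GDB1 at 2.82. Against 42 °C for 30 min, 26 differed in the higher and 110 in the lower direction, with TSA2 at 3.25, TFS1 at 3.00, AHP1 at 2.29 and HXT4 at -2.55. Against Hsf1-depleted cells under the same heat, 9 genes differed, all in the higher direction, with HSP42 at 6.29, HSP104 at 4.25, HSP78 at 3.68, CUR1 at 2.07, UBI4 at 1.94 and HRK1 at 2.14.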

How the results depend on the processing

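The lower calls held better than the higher ones. On the 6 compared libraries alone 454 of the 535 lower and 171 of the 424 higher genes were kept, with 173 higher genes in all, and no called gene was called in the opposite direction under any alternative. Library totals gave 845 higher genes, and 1616 higher and 391 lower in the Hsf1-depleted comparison. Leaving out single libraries gave 132 to 561 higher and 489 to 840 lower genes. The general stress, trehalose, glycogen, stress isozyme and regulator lists stayed within 1.5 times their counts under all alternatives run. Ribosome biogenesis went to 3 on the 6 libraries and 2 to 15 with a library left out, respiration to 10 to 22, and the core Hsf1 list to 3 higher under library totals and 0 to 2.

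The differences between settings moved more. Against 25 °C the higher count was 306 (library totals), 389 (set term), 271 (length trend), 270 (DESeq2) and 69 to 372 (a library left out), and the lower count was 249 under library totals and 303 to 599. Against 37 °C the higher count was 32 (totals), 115 (set term) and 24 to 49, and the lower count 77 (set term), 51 (DESeq2) and 15 to 37. Against 42 °C for 30 min the higher count was 42 (totals), 56 (set term), 43 (DESeq2) and 11 to 37, and the lower count 38 (totals), 170 (set term) and 57 to 122. Against Hsf1-depleted cells the higher count was 5 (totals), 16 (set term) and 5 to 12, and the lower count 1 (set term), 1 (DESeq2) and 0 to 1. The cause was not tested.

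Of 90 named genes, 13 changed call or sign under an alternative. None of those that changed sign was called: HSP42 had 0.17 under library totals and -0.59 to 0.11 with a library left out, HSP104 -0.083 to 0.11 and HSP82 -0.052 to 0.21, and under library totals HXK2 had 0.17 and PGM1 0.033. The replicate number as a block gave 390 higher and 546 lower genes. Libraries with the same number deviated in opposite directions (correlations of -0.53, -0.40 and -0.41). MSN-deleted replicates 2 and 3 had 0.46 and 0.47 with wild-type replicate 1. Deviations from a mean of 3 libraries depend on each other, so these values cannot tell whether the numbers pair the samples.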
